A study of Arabidopsis thaliana with 12 samples.

Results

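The late embryogenesis abundant (LEA) genes of Arabidopsis thaliana were followed across developing seeds of dellaq, lec1-4 and wild-type plants. The members were the 51 LEA loci of the species, taken by locus identifier from the 33602 gene identifiers in the expression tables, and all 51 were found. Transcripts were measured by poly-A RNA sequencing of seeds taken out of their siliques 9 days after pollination, from plants grown at 22 °C on a cycle of 16 h light and 8 h darkness. Each of 4 groups had 3 libraries: dellaq, whose name points to the DELLA repressors of gibberellin signalling, lec1-4, named as an allele of LEC1, and a pair of wild-type Col-0 sets that the labels call Col-0-1 and Col-0-2. The labels do not say which DELLA genes dellaq lacks or which wild-type set was grown with which mutant, so each mutant was set against both. They do not say either that the libraries of a group came from separate plants or harvests, so the p-values reflect library-to-library spread alone, part or all of which may be technical.

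LEA proteins are hydrophilic and mostly unfolded in water, and many gain helical structure as water is lost. They accumulate in the embryo during late maturation, when the seed acquires desiccation tolerance, and some are made in leaves and roots under cold, drought or abscisic acid. In seeds many LEA genes are switched on through abscisic acid and the factors ABI3 and ABI5, downstream of the LEC1, LEC2 and FUS3 maturation regulators. DELLA proteins act in the opposing gibberellin pathway, which promotes germination. Arabidopsis LEA genes fall into 9 families by sequence: the dehydrins, LEA_1 to LEA_5, the seed maturation proteins (SMP), AtM and PvLEA18. Among them, 14 are grouped below as seed-type, for their known expression in maturing seeds, and 5 as vegetative-type (COR47, ERD10, ERD14, COR15A and COR15B), for their known induction by cold or dehydration in leaves.

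Levels are FPKM, fragments scaled by transcript length and library total, so that genes can be compared with each other. Depth, inferred from the smallest steps between low values, was 13.7 to 19.4 M fragments a library, with 18505 to 19404 genes at 1 FPKM or more. LEC1 lay between 2.38 and 3.42 FPKM in the lec1-4 libraries, against 67.5 to 93.2 FPKM in Col-0-1 and 123 to 124 FPKM in Col-0-2. Of the 5 DELLA genes, RGL1 lay between 1.05 and 1.61 FPKM and RGL2 between 3.74 and 6.01 FPKM in dellaq, against at least 8.43 FPKM and at least 16.1 FPKM in each wild-type library. GAI, RGA and RGL3 kept levels of 6.63 to 21.0 FPKM in dellaq, and since the alleles are not given, none of these levels checks the genotype. Plastid-encoded transcripts summed to 7116 to 8593 FPKM in dellaq and 127 to 186 FPKM in lec1-4, against 172 to 251 FPKM in Col-0-1 and 4523 to 5039 FPKM in Col-0-2, so that the wild-type sets lay on different sides in this measure too. The embryo epidermis gene ATML1 (56.2 to 71.1 FPKM) and the seed coat gene TT10 (540 to 805 FPKM) were present in all 12 libraries.

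The upstream sequences of 6 members are printed here because their genes mark the patterns that follow: EM1 and AT3G15670 were higher in both mutants, AT2G21490 and AT5G44310 were higher in dellaq without being higher in lec1-4 against both wild-type sets, EM6 reached 1 FPKM in dellaq only, and COR47 was lower in dellaq. Each is the 250 bases before the annotated gene start on the RefSeq TAIR10.1 assembly, read 5′ to 3′ on the gene's own strand. Capitals mark 3 short motifs on either strand: the abscisic acid response element core ACGTG (also inside the G-box CACGTG), the RY element CATGCA, which B3 factors such as ABI3 and FUS3 can bind, and the DRE/CRT core CCGAC, which CBF factors can bind. The windows lie at chr3:19214472-19214721 on the plus strand for EM1, at chr2:16780369-16780618 on the minus strand for EM6, at chr3:5310989-5311238 on the minus strand for AT3G15670, at chr2:9207126-9207375 on the minus strand for AT2G21490, at chr5:17849537-17849786 on the minus strand for AT5G44310 and at chr1:7086874-7087123 on the minus strand for COR47. None of these windows overlaps an exon of another annotated gene.
EM1: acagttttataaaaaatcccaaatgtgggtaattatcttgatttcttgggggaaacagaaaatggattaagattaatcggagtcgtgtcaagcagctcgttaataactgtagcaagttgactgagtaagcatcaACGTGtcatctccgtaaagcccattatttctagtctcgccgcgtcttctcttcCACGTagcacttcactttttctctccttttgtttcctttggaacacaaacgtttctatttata
AT3G15670: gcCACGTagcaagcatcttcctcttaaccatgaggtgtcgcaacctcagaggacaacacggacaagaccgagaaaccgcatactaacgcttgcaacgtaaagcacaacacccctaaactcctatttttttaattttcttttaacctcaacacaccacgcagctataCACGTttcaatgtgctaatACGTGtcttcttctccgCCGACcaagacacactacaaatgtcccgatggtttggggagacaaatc
EM6: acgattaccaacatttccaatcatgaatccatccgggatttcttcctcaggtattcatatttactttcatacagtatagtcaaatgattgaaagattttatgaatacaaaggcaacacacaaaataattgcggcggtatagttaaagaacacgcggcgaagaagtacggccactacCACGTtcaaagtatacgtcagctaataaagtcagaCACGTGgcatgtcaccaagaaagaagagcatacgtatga
AT2G21490: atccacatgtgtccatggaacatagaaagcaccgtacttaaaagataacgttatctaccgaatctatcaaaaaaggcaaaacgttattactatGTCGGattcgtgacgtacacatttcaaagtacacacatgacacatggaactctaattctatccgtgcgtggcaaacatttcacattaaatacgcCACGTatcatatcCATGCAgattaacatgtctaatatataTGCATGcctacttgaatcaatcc
AT5G44310: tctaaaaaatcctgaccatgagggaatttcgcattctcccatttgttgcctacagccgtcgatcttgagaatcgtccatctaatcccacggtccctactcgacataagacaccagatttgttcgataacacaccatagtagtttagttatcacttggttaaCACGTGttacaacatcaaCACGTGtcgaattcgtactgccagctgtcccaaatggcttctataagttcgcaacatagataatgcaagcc
COR47: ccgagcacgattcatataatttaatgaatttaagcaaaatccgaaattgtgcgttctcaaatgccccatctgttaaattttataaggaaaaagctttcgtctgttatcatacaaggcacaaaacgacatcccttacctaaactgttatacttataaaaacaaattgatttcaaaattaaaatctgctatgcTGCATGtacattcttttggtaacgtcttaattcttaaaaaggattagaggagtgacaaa
The first 3 windows and that of AT5G44310 hold at least 2 separate ACGTG cores, AT2G21490 holds 1 core with 2 RY elements, and COR47 holds an RY element but no core.

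LEA transcripts were abundant in all groups. The 10 dehydrins made up 42.1% to 51.9% of the family's summed level in dellaq and 65.7% to 74.1% in lec1-4, against 72.2% to 74.4% in Col-0-1 and 69.9% to 74.04% in Col-0-2. Over all 51 members the summed level was 2385 to 3201 FPKM in dellaq and 2588 to 2923 FPKM in lec1-4, against 2518 to 2594 FPKM in Col-0-1 and 2263 to 2286 FPKM in Col-0-2. There were 6 members that averaged at least 100 FPKM over the 12 libraries: HIRD11 (638 FPKM), ERD14 (560 FPKM), AT2G23120 (203 FPKM), ERD10 (194 FPKM), COR47 (183 FPKM) and AT2G44060 (141 FPKM). The number of members that reached 1 FPKM was 35 to 40 in dellaq and 30 to 35 in lec1-4, against 27 to 30 in Col-0-1 and 23 to 26 in Col-0-2. More of the family was therefore above 1 FPKM in every dellaq library than in any wild-type library, while the sum over the family overlapped between dellaq and Col-0-1.

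**Figure D1:**
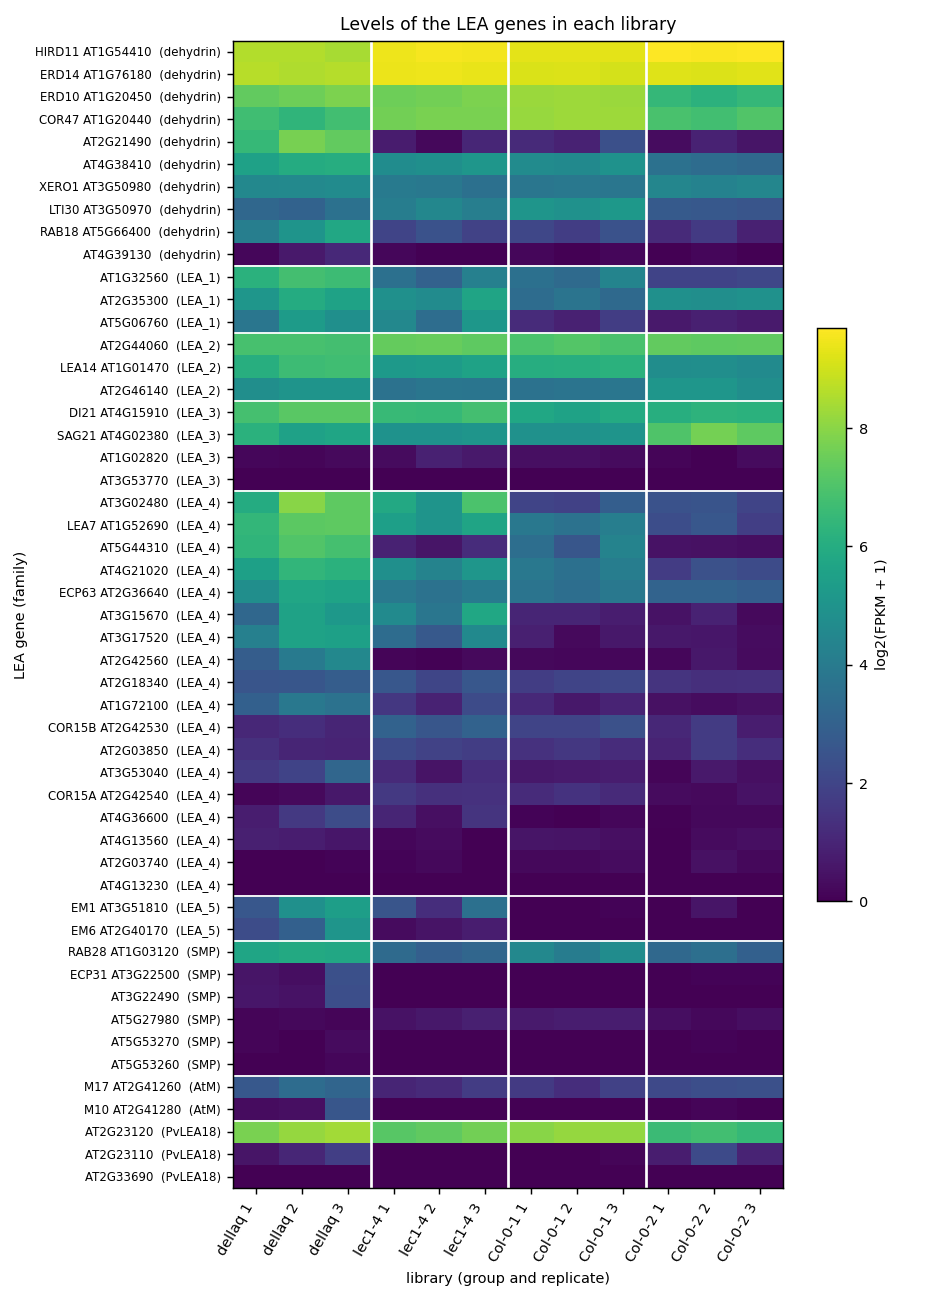
Levels of the 51 LEA genes in the 12 libraries. Rows are genes by family, columns are libraries by group, and colour is log2(FPKM + 1). Most LEA_4 and both LEA_5 genes are brighter in dellaq, and the abundant dehydrins HIRD11 and ERD14 are dimmer there (348 to 378 FPKM and 371 to 408 FPKM) than in the other groups.

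Of the 51 members, 38 passed the filter of at least 1 FPKM in at least 3 libraries and were tested, together with all 20222 genes that passed it, in limma-trend on log2(FPKM + 1). Changes are log2 differences on that scale with their standard error (SE), adjusted p-values are Benjamini-Hochberg values over all tested genes, and the threshold is 0.05. EM6 and AT2G42560 reached 1 FPKM in dellaq only, so they could be tested only because they were high there. They are described by their levels, and the dellaq counts are also given without them. AT3G53040, AT4G36600 and AT2G23110 reached 1 FPKM elsewhere too, but passed the filter only with their dellaq libraries. These genes stay in the dellaq counts, AT3G53040 and AT4G36600 as higher against both sets. EM1, AT3G15670 and AT3G17520 reached 1 FPKM in no wild-type library, so they passed the filter through the mutants alone.

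In dellaq seeds most tested LEA genes were higher than in wild type, among them most of the tested seed-type members. Against Col-0-1, 28 members were higher and 8 lower, and 2 did not pass, where 19.4% of all tested genes were higher and 50.9% lower. Against Col-0-2, 27 were higher and 5 lower, and 6 did not pass, where 21.9% of all tested genes were higher and 41.6% lower. The median change of the tested members was 1.42 against Col-0-1 (all tested genes: -0.22) and 1.61 against Col-0-2 (all tested genes: -0.12). Called in the same direction against both sets were 24 higher and 4 lower members, where 9.78% of all tested genes were higher and 28.4% lower in that way. Without EM6 and AT2G42560 the count was 22 higher and 4 lower of 36. This count still holds the genes above that passed the filter with their dellaq libraries or through the mutants alone. Among the 38 tested members, 24 lay above all 6 wild-type libraries in each dellaq library (10.5% of all tested genes) and 4 lay below all 6 (30.0% of all tested genes).

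By family, the 24 members called higher against both sets were 12 of 15 tested LEA_4 genes, 3 of 3 LEA_1, 3 of 9 dehydrins, 2 of 2 LEA_5, and 1 each of LEA_2, LEA_3, SMP and AtM. The 4 lower members were 3 dehydrins and 1 LEA_2 gene. By type, 10 of 11 tested seed-type members were higher (8 of 9 without EM6 and AT2G42560) and none was lower, and at unadjusted p under 0.05 none of them was lower against both sets either. The 8 still hold AT3G53040, which passed the filter only with its dellaq libraries. They also hold EM1 and AT3G15670, which passed it through the mutants alone, so the count is not free of the filter. Of the 5 vegetative-type members 2 were lower and none was higher. Of all tested genes 9.78% were higher and 28.4% lower against both sets. Both types were assigned with earlier results of these data known. The summed level of the 14 seed-type members was 302 to 587 FPKM in dellaq and 49.5 to 106 FPKM in lec1-4, against 48.8 to 79.1 FPKM in Col-0-1 and 39.6 to 44.7 FPKM in Col-0-2. In each dellaq library this sum was above that of every other library.

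Some tissue markers also differed in dellaq, where 28.4% of all tested genes were lower and 9.78% higher against both wild-type sets. Of 6 seed coat genes, 5 were lower than in either wild-type set, and their sum was 954 to 1143 FPKM in dellaq, against 1508 to 1665 FPKM in Col-0-1 and 1481 to 1585 FPKM in Col-0-2. Of 4 silique wall genes, 2 were called lower against both sets, with a sum of 22.7 to 24.1 FPKM in dellaq, against 64.5 to 73.9 FPKM in Col-0-1 and 31.7 to 34.5 FPKM in Col-0-2. The endosperm list, of which 4 of 6 genes could be tested, had 1 gene higher and 2 lower, and its sum of 2730 to 2999 FPKM in dellaq, against 1212 to 1646 FPKM in Col-0-1 and 448 to 536 FPKM in Col-0-2, was almost wholly EPR1. The endosperm regulator ZOU had 14.4 to 20.8 FPKM in dellaq, against 34.4 to 38.7 FPKM in Col-0-1 and 34.8 to 39.2 FPKM in Col-0-2, and was called lower against both sets, as was FWA. AGL62 missed the threshold against both, and IKU2 and MINI3 were at or near 0 in all 12 libraries. Of 6 embryo genes 1 was higher, and their sum was 546 to 594 FPKM in dellaq, against 520 to 524 FPKM in Col-0-1 and 312 to 353 FPKM in Col-0-2. The part of these shifts in the LEA changes was not tested, and in whole seeds fewer cells of a type and less RNA per cell cannot be told apart.

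**Figure D2:**
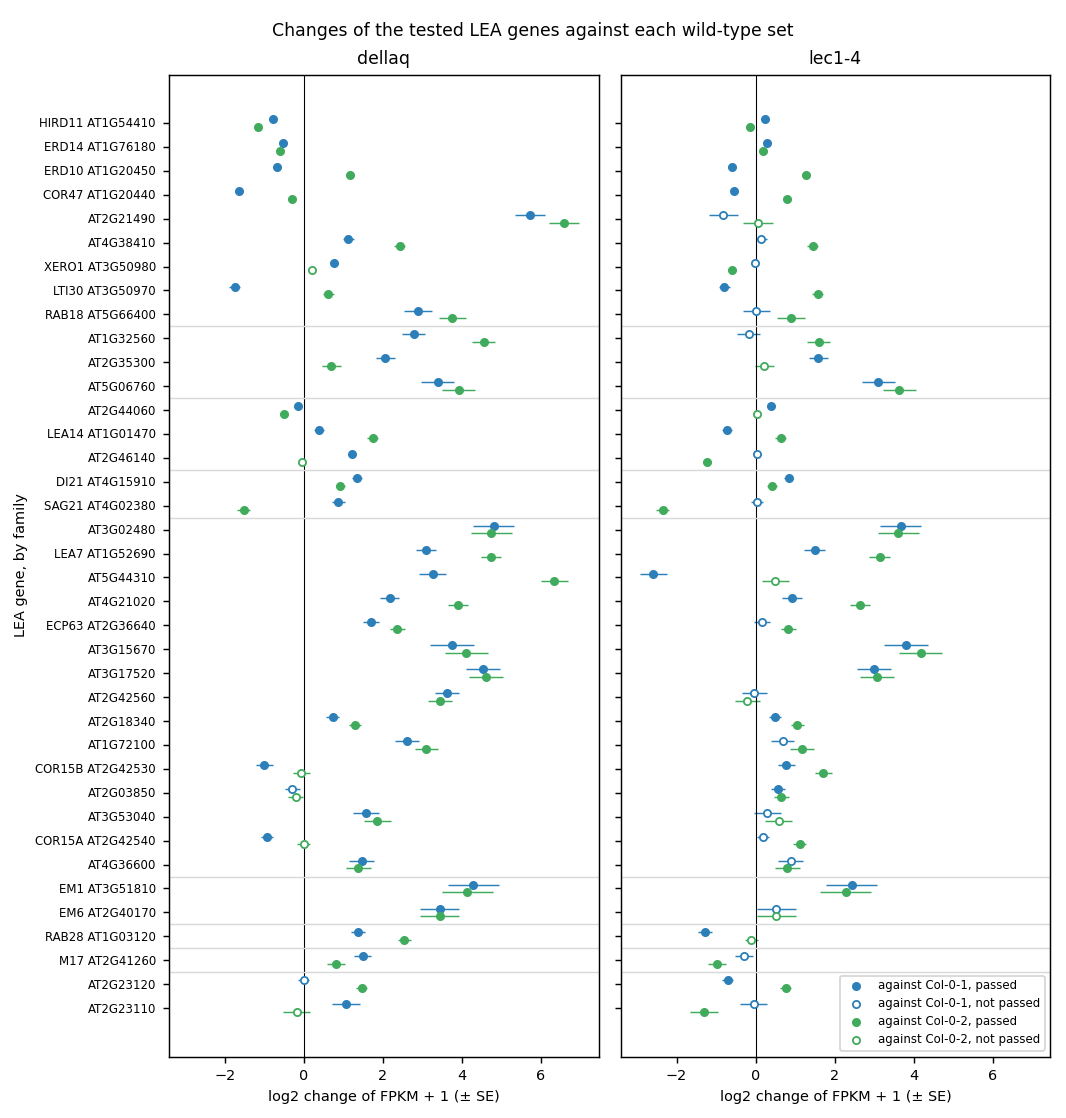
Log2 changes of FPKM + 1 (points, with SE as bars) of the 38 tested LEA genes in dellaq (left) and lec1-4 (right), against Col-0-1 (blue) and Col-0-2 (green). Filled points passed an adjusted p of 0.05. In dellaq most points lie right of 0 against both sets, while in lec1-4 many genes lie on different sides of 0 against the 2 sets.

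The LEA_5 genes EM1 (AT3G51810) and EM6 (AT2G40170), homologues of the wheat Em protein and known ABI5 targets, were close to absent in wild type. EM1 had 5.26, 28.4 and 42.7 FPKM in dellaq, against 0, 0 and 0.0750 FPKM in Col-0-1 and 0, 0.477 and 0 FPKM in Col-0-2. All 3 dellaq libraries were above all 6 wild-type libraries, and the change was 4.29 (SE 0.64, adjusted p = 7.77e-05) against Col-0-1 and 4.14 (SE 0.64, adjusted p = 0.00012) against Col-0-2. EM1 passed the filter through the mutants alone, so these p-values add no support beyond its levels. EM6 had 3.76, 6.93 and 32.6 FPKM in dellaq and was listed at 0 in all 6 wild-type libraries, so no fold is given, nor a test, since it passed the filter through dellaq alone. Replicate 3 was far above the other dellaq libraries.

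The seed dehydrin AT2G21490 and the LEA_4 gene AT5G44310 reached the highest levels among the seed-type members. AT2G21490 had 90.0, 207 and 164 FPKM in dellaq, against 1.21, 0.882 and 4.11 FPKM in Col-0-1 and 0.246, 0.879 and 0.481 FPKM in Col-0-2. The groups did not overlap, and the change was 5.72 (SE 0.38, adjusted p = 8.88e-08) against Col-0-1 and 6.59 (SE 0.38, adjusted p = 2.93e-08) against Col-0-2, the largest of any tested member in both comparisons. AT5G44310 had 79.6, 135 and 114 FPKM in dellaq, against 10.48, 5.11 and 19.2 FPKM in Col-0-1 and 0.376, 0.348 and 0.272 FPKM in Col-0-2. Its change was 3.26 (SE 0.34, adjusted p = 3.85e-06) against Col-0-1 and 6.34 (SE 0.34, adjusted p = 1.93e-08) against Col-0-2, and the gap between these is the difference between the wild-type sets.

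RAB28 (AT1G03120), the most abundant SMP gene, had 51.4, 58.8 and 55.5 FPKM in dellaq, against 22.2, 15.8 and 25.0 FPKM in Col-0-1 and 8.72, 10.6 and 6.83 FPKM in Col-0-2. The groups did not overlap, and the change was 1.38 (SE 0.17, adjusted p = 1.41e-05) against Col-0-1 and 2.55 (SE 0.17, adjusted p = 8.22e-08) against Col-0-2. M17 (AT2G41260), the AtM gene that could be tested, had 5.32, 9.87 and 7.98 FPKM in dellaq, against 2.16, 1.41 and 2.64 FPKM in Col-0-1 and 3.46, 4.00 and 4.10 FPKM in Col-0-2. It was higher by 1.49 (SE 0.22, adjusted p = 7.07e-05) and 0.81 (SE 0.22, adjusted p = 0.00642). The LEA_4 genes ECP63 and AT3G53040 were also higher against both sets, with changes of 1.70 and 1.58 against Col-0-1. AT3G53040 passed the filter only with its dellaq libraries. AT2G42560, a further LEA_4 gene, had 6.33, 14.9 and 22.4 FPKM in dellaq, against at most 0.155 FPKM in Col-0-1 and 0.535 FPKM in Col-0-2. The dehydrin XERO1 (AT3G50980) was the exception among the seed-type members, with 21.9, 22.9 and 24.5 FPKM in dellaq, against 13.1, 13.6 and 12.9 FPKM in Col-0-1 and 20.8, 18.8 and 20.6 FPKM in Col-0-2. It passed against Col-0-1 (0.76, adjusted p = 1.03e-05) and missed the threshold against Col-0-2 (0.20, adjusted p = 0.0734), although each dellaq library was above all 6 wild-type libraries. That call depended on the setting, since XERO1 passed against both sets under upper-quartile scaling (0.28 against Col-0-2, adjusted p = 0.0194), under median-ratio scaling (0.30, adjusted p = 0.0139), with only the compared libraries in the fit (adjusted p = 0.0332) and without lec1-4 replicate 3 (adjusted p = 0.0139).

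Several LEA_4 genes that the seed-type list does not hold changed by as much. LEA_4 proteins fold into amphipathic helices on drying, and the family's summed level was 347 to 808 FPKM in dellaq, against 53.2 to 85.9 FPKM in Col-0-1 and 22.0 to 31.8 FPKM in Col-0-2. AT3G02480, the most abundant of them, had 60.9, 252 and 155 FPKM in dellaq, against 3.00, 2.69 and 6.46 FPKM in Col-0-1 and 4.47, 4.77 and 2.98 FPKM in Col-0-2, a change of 4.81 (SE 0.52, adjusted p = 5.07e-06) and 4.75 (SE 0.52, adjusted p = 6.21e-06). AT3G17520 had 17.8, 46.7 and 45.0 FPKM in dellaq, against 0.808, 0.186 and 0.561 FPKM in Col-0-1 and 0.523, 0.509 and 0.248 FPKM in Col-0-2. AT3G15670, a seed-type LEA_4 gene, had 8.43, 47.4 and 35.4 FPKM in dellaq, against 0.990, 0.986 and 0.727 FPKM in Col-0-1 and 0.404, 0.901 and 0.197 FPKM in Col-0-2. In each of these genes no dellaq library overlapped wild type, and the changes were 4.53 (SE 0.43) and 4.60 (SE 0.43) for AT3G17520 and 3.75 (SE 0.55) and 4.12 (SE 0.55) for AT3G15670. LEA7 (AT1G52690), which like RAB18 and AT5G44310 is described because of its values, was higher by 3.10 (SE 0.26) against Col-0-1 and 4.74 (SE 0.26) against Col-0-2.

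Outside LEA_4, the LEA_1 gene AT1G32560 had 73.0, 109 and 98.9 FPKM in dellaq, against 10.9, 9.15 and 19.8 FPKM in Col-0-1 and 2.88, 2.90 and 3.18 FPKM in Col-0-2, with no overlap. Its change was 2.78 (SE 0.29, adjusted p = 4.16e-06) against Col-0-1 and 4.55 (SE 0.29, adjusted p = 6.78e-08) against Col-0-2. RAB18 (AT5G66400), a dehydrin widely used as a reporter of abscisic acid response, had 16.6, 31.6 and 54.7 FPKM in dellaq, against 3.24, 2.38 and 4.48 FPKM in Col-0-1 and 1.24, 2.10 and 0.844 FPKM in Col-0-2. The groups did not overlap, and RAB18 was higher by 2.89 (SE 0.35, adjusted p = 1.26e-05) and 3.76 (SE 0.35, adjusted p = 1.44e-06). DI21 (AT4G15910), the drought-induced LEA_3 gene, had 115, 149.8 and 149.8 FPKM in dellaq, against 53.4, 47.2 and 59.8 FPKM in Col-0-1 and 66.0, 77.0 and 72.8 FPKM in Col-0-2. DI21 was higher by 1.35 (SE 0.12, adjusted p = 8.16e-07) and 0.92 (SE 0.12, adjusted p = 2.16e-05). Of the 24 higher members, 23 did not overlap wild type in any library, and LEA14 did. Among the 24 calls 2 rested on single libraries: without dellaq replicate 2 or 3, LEA14 missed the threshold against Col-0-1 (adjusted p = 0.0925 and 0.114) and AT2G35300 missed it against Col-0-2 (adjusted p = 0.110 and 0.0617). LEA14 also missed it without Col-0-1 replicate 1 or 2 (adjusted p = 0.0740 and 0.0604), and AT2G35300 without Col-0-2 replicate 1 or 2 (adjusted p = 0.0540 and 0.0625).

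**Figure D3:**
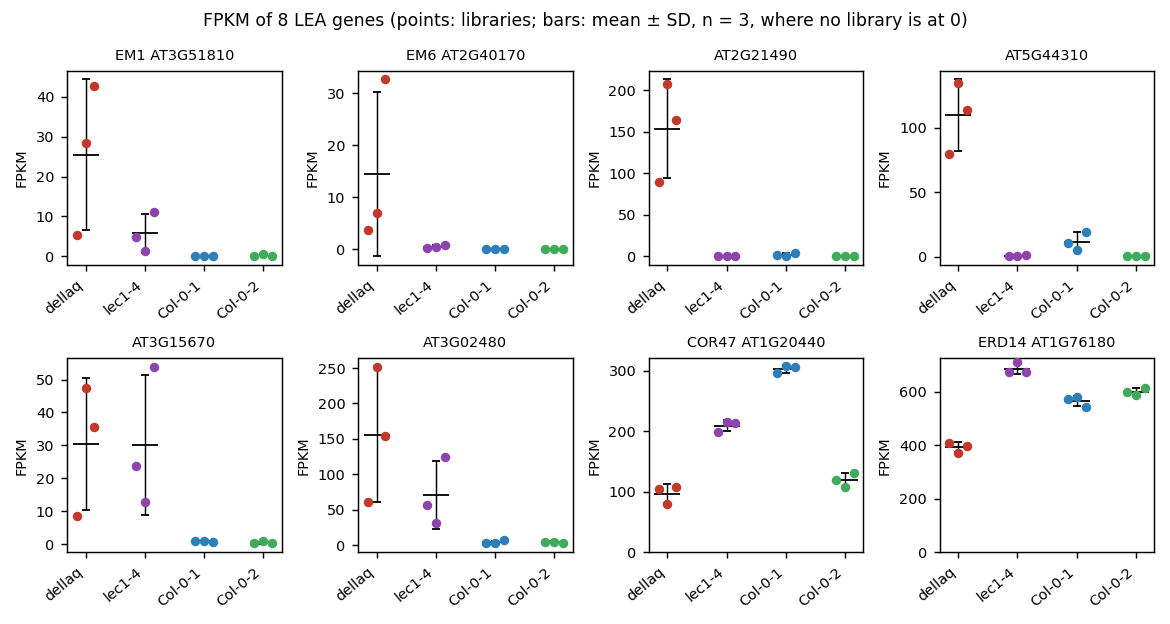
FPKM of 8 LEA genes by group, dellaq and lec1-4 left of the wild-type sets. Points are libraries, and bars give mean ± SD of 3 libraries where none is at 0. EM6, AT2G21490 and AT5G44310 are highest in dellaq, EM1, AT3G15670 and AT3G02480 are high in both mutants, COR47 is highest in Col-0-1, and ERD14 is lowest in dellaq.

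Lower in dellaq than in both wild-type sets were 3 dehydrins, among them the pair with the highest mean levels of all members, and 1 LEA_2 gene. HIRD11 (AT1G54410), a small dehydrin known to bind metal ions, had 378, 378 and 348 FPKM in dellaq, against 631, 625 and 634 FPKM in Col-0-1 and 831, 792 and 822 FPKM in Col-0-2. ERD14 (AT1G76180), an acidic dehydrin that protects enzymes in vitro, had 408, 371 and 397 FPKM in dellaq, against 572, 579.8 and 544 FPKM in Col-0-1 and 598, 586 and 612 FPKM in Col-0-2. In both genes every dellaq library was below every wild-type library. HIRD11 fell by 0.78 (SE 0.05, adjusted p = 3.74e-08) against Col-0-1 and by 1.15 (SE 0.05, adjusted p = 3.58e-09) against Col-0-2, and ERD14 fell by 0.53 (SE 0.05, adjusted p = 9.83e-07) and by 0.61 (SE 0.05, adjusted p = 2.84e-07). COR47 (AT1G20440), a cold-regulated dehydrin, had 104.6, 79.8 and 107 FPKM in dellaq, against 296, 308 and 306 FPKM in Col-0-1 and 119.9, 108 and 132 FPKM in Col-0-2. COR47 fell by 1.64 (SE 0.10, adjusted p = 4.01e-08) against Col-0-1, but by only 0.31 (SE 0.10, adjusted p = 0.0156) against Col-0-2, and that smaller change missed the threshold without Col-0-2 replicate 3 (adjusted p = 0.0711) and under median-ratio scaling (adjusted p = 0.0860). AT2G44060, a LEA_2 gene, had 115, 116 and 110.1 FPKM in dellaq, against 124, 135 and 118 FPKM in Col-0-1 and 164, 158 and 159 FPKM in Col-0-2. It fell by 0.14 (SE 0.05, adjusted p = 0.0359) and by 0.49 (SE 0.05, adjusted p = 7.25e-06), and the first of these changed sign under median-ratio scaling (0.09, adjusted p = 0.170). Without dellaq replicate 1 or 3, or Col-0-1 replicate 1 or 2, it missed the threshold against Col-0-1 (adjusted p = 0.0513, 0.118, 0.0593 and 0.164).

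The other vegetative-type members depended on the wild-type set. ERD10 (AT1G20450), a dehydrin that lies 1030 bases from COR47 on chromosome 1, had 164, 189 and 217 FPKM in dellaq, against 300.3, 307 and 302 FPKM in Col-0-1 and 87.1, 74.6 and 87.0 FPKM in Col-0-2. The dellaq libraries lay between the wild-type sets, so that ERD10 was lower by -0.68 (SE 0.09, adjusted p = 4.21e-05) against Col-0-1 and higher by 1.183 (SE 0.09, adjusted p = 4.08e-07) against Col-0-2. COR15B (AT2G42530) and its neighbour COR15A (AT2G42540) encode cold-induced chloroplast proteins of the LEA_4 family. COR15B had 1.10, 1.43 and 1.02 FPKM in dellaq, against 2.99, 2.98 and 4.23 FPKM in Col-0-1 and 1.10, 2.25 and 0.718 FPKM in Col-0-2. COR15A had 0.107, 0.186 and 0.546 FPKM in dellaq, against 1.31, 1.71 and 1.21 FPKM in Col-0-1 and 0.231, 0.184 and 0.402 FPKM in Col-0-2. Both were lower in dellaq against Col-0-1 (-1.004 and -0.92, adjusted p = 0.00128 and 0.000204) and missed the threshold against Col-0-2 (-0.06 and -0.00, adjusted p = 0.815 and 0.989). In dellaq, 3 of the 38 tested members passed in opposite directions against the wild-type sets, as did 9.54% of all tested genes: ERD10, the cold-induced dehydrin LTI30 (-1.74 and 0.63) and the senescence-associated LEA_3 gene SAG21 (0.87 and -1.52, each against Col-0-1 and then Col-0-2).

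In lec1-4 seeds fewer LEA genes stood apart from both wild-type sets, and those that did were mostly LEA_4 genes. Against Col-0-2, 24 members were higher and 6 lower, and 8 did not pass, where 42.7% of all tested genes were higher and 23.3% lower. Against Col-0-1, 15 were higher and 7 lower, and 16 did not pass, where 15.8% of all tested genes were higher and 10.7% lower. The median change of the tested members was 0.78 against Col-0-2 (all tested genes: 0.13) and 0.21 against Col-0-1 (all tested genes: 0.05). Called in the same direction against both were 12 higher members, where 8.19% of all tested genes were higher in that way. In limma-trend 0 members were lower against both, also at unadjusted p under 0.05, where 4.01% of all tested genes were lower. Among the tested members 13 lay above all 6 wild-type libraries in each lec1-4 library (14.9% of all tested genes) and 0 lay below all 6 (5.46% of all tested genes). Of the 6 embryo markers, 2 were higher in lec1-4 against both sets, with a summed level of 669 to 753 FPKM in lec1-4, against 312 to 353 FPKM in Col-0-2 and 520 to 524 FPKM in Col-0-1, and none of the seed coat or silique wall markers was called against both. Of the 4 tested endosperm markers FWA was higher against both, at 9.78 to 10.5 FPKM in lec1-4, against 5.67 to 7.55 FPKM in Col-0-2 and 0.986 to 1.38 FPKM in Col-0-1, while the endosperm sum was 568 to 731 FPKM in lec1-4, against 448 to 536 FPKM in Col-0-2 and 1212 to 1646 FPKM in Col-0-1. The part of these markers in the LEA counts was not tested.

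The 12 members comprised 8 LEA_4 genes and 1 each of the dehydrins, LEA_1, LEA_3 and LEA_5, and 2 of them were seed-type and 2 vegetative-type. AT3G15670 had 23.8, 12.9 and 53.9 FPKM in lec1-4, against 0.404, 0.901 and 0.197 FPKM in Col-0-2 and 0.990, 0.986 and 0.727 FPKM in Col-0-1. It was above wild type in every lec1-4 library and changed by 4.18 (SE 0.55, adjusted p = 3.19e-05) against Col-0-2 and 3.81 (SE 0.55, adjusted p = 0.000324) against Col-0-1. AT3G02480 had 56.6, 31.2 and 124 FPKM in lec1-4, against 2.98 to 4.77 FPKM in Col-0-2 and 2.69 to 6.46 FPKM in Col-0-1, a change of 3.61 (SE 0.52, adjusted p = 6.25e-05) and 3.68 (SE 0.52, adjusted p = 0.00027). AT5G06760, a LEA_1 gene, had 21.8, 10.11 and 34.5 FPKM in lec1-4, against 0.601, 0.787 and 0.626 FPKM in Col-0-2 and 1.26, 0.862 and 2.36 FPKM in Col-0-1, a change of 3.64 (SE 0.41, adjusted p = 9.22e-06) and 3.11 (SE 0.41, adjusted p = 0.000178). AT3G17520 had 9.87, 5.51 and 23.3 FPKM in lec1-4, against at most 0.523 FPKM in Col-0-2 and 0.808 FPKM in Col-0-1, a change of 3.08 (SE 0.43, adjusted p = 4.95e-05) and 3.00 (SE 0.43, adjusted p = 0.000295). In these 4 genes the lec1-4 libraries lay clear of all 6 wild-type libraries, with replicate 3 the highest and replicate 2 the lowest of the lec1-4 libraries each time. AT3G15670 and AT3G17520 passed the filter through the mutants alone, so their p-values add no support beyond their levels.

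EM1 had 4.95, 1.39 and 11.0 FPKM in lec1-4, against at most 0.477 FPKM in Col-0-2 and 0.0750 FPKM in Col-0-1. It passed against both sets (2.28, SE 0.64, adjusted p = 0.00764 against Col-0-2, and 2.44, SE 0.64, adjusted p = 0.0148 against Col-0-1), but not against Col-0-1 without lec1-4 replicate 3 (adjusted p = 0.0626). Here too EM1 entered the test through the mutants alone, so its levels carry the description. EM6 had 0.224, 0.430 and 0.716 FPKM in lec1-4 and was listed at 0 in wild type, and it missed the threshold against Col-0-2 and Col-0-1 (adjusted p = 0.373 and 0.479) although every lec1-4 library was above wild type. EM6 passed against Col-0-2 and Col-0-1 at a pseudocount of 0.1 FPKM (adjusted p = 0.00734 and 0.0201) and with only the compared libraries in the fit (adjusted p = 0.0229 and 0.0454), and against Col-0-2 without dellaq replicate 3 (adjusted p = 0.0310). LEA7 and DI21 were higher by 3.14 (SE 0.26) and 0.42 (SE 0.12) against Col-0-2 and by 1.49 (SE 0.26) and 0.84 (SE 0.12) against Col-0-1. Under median-ratio scaling DI21 missed the threshold against Col-0-2 (0.26, adjusted p = 0.0771). Of the 12 calls, 4 were lost without lec1-4 replicate 1, those of AT2G03850, AT2G18340, COR15B and AT4G21020, which left 8. Without lec1-4 replicate 3 the calls of AT2G18340, COR15B, EM1 and AT4G21020 were lost, which also left 8.

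The vegetative-type members were higher in lec1-4 against Col-0-2 and divided against Col-0-1. All 5 were higher against Col-0-2, while 2 were higher and 2 lower against Col-0-1. Of all tested genes 42.7% were higher against Col-0-2, and 15.8% were higher and 10.7% lower against Col-0-1. ERD14 had 675, 709 and 672 FPKM in lec1-4, against 598, 586 and 612 FPKM in Col-0-2 and 572, 579.8 and 544 FPKM in Col-0-1. It was above every wild-type library, by 0.19 (SE 0.05, adjusted p = 0.00292) against Col-0-2 and 0.28 (SE 0.05, adjusted p = 0.000968) against Col-0-1, and was the only member higher in lec1-4 and lower in dellaq against both sets (4.04% of all tested genes were), although under median-ratio scaling its change against Col-0-2 missed the threshold (0.04, adjusted p = 0.499). COR15B had 7.34, 5.02 and 7.36 FPKM in lec1-4, above all wild-type libraries, and passed against Col-0-2 (1.72, adjusted p = 2.22e-05) and Col-0-1 (0.78, adjusted p = 0.0194). That last call was lost without lec1-4 replicate 1 or 3 or Col-0-1 replicate 1 or 2 (adjusted p = 0.0705, 0.0680, 0.0686 and 0.0614). COR15A had 2.05, 1.57 and 1.64 FPKM in lec1-4, a change of 1.11 (adjusted p = 5.21e-05) against Col-0-2 and 0.19 (adjusted p = 0.398) against Col-0-1. COR47 had 199, 215 and 214 FPKM in lec1-4 and ERD10 had 186, 196 and 222 FPKM there, between the wild-type sets for both genes, and passed upward against Col-0-2 (0.80 and 1.27) and downward against Col-0-1 (-0.54 and -0.59). In lec1-4, 6 of the 38 tested members passed in opposite directions against the wild-type sets, as did 7.12% of all tested genes: LEA14, COR47, ERD10, HIRD11, AT2G23120 and LTI30.

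Of the 11 tested seed-type members 2 were higher and none lower in lec1-4 against both sets, where 8.19% of all tested genes were higher and 4.01% lower. The 2 were EM1 and AT3G15670, which passed the filter through the mutants alone. ECP63 was higher against Col-0-2 (0.83, SE 0.20, adjusted p = 0.00258) and missed the threshold against Col-0-1 (0.16, adjusted p = 0.593). RAB28 had 9.10, 6.69 and 8.09 FPKM in lec1-4, which overlapped Col-0-2 and lay below Col-0-1 (-1.28, SE 0.17, adjusted p = 0.000156). AT5G44310 had 0.888, 0.478 and 1.36 FPKM in lec1-4, lower than Col-0-1 by -2.58 (SE 0.34, adjusted p = 0.000163), with 0.49 (SE 0.34, adjusted p = 0.219) against Col-0-2. AT2G21490 had 0.655, 0.157 and 1.04 FPKM in lec1-4, which overlapped both wild-type sets. M17 had 1.03, 1.25 and 2.27 FPKM in lec1-4 and was lower than Col-0-2 (-0.98, SE 0.22, adjusted p = 0.00191) but not past the threshold against Col-0-1 (-0.30, adjusted p = 0.353).

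The wild-type sets differed in 25 of the 38 tested members, about the share over all tested genes (65.9%). In Col-0-2 against Col-0-1, 9 members were higher and 16 lower, where 25.8% of all tested genes were higher and 40.1% lower, and the median change was -0.43 (all tested genes: -0.10). SAG21, a mitochondrial LEA_3 protein linked to oxidative stress, had 131, 205 and 154 FPKM in Col-0-2, against 28.7, 29.4 and 31.7 FPKM in Col-0-1, a change of 2.39 (SE 0.16, adjusted p = 1.17e-07). LTI30, a membrane-binding cold-induced dehydrin, had 5.76, 5.43 and 4.91 FPKM in Col-0-2, against 32.2, 28.9 and 34.7 FPKM in Col-0-1, a change of -2.37 (SE 0.14, adjusted p = 3.29e-08). For AT5G44310 the difference was larger still (-3.08, SE 0.34, adjusted p = 6.77e-06). AT2G23120, the most abundant PvLEA18 gene, had 98.0, 107 and 89.0 FPKM in Col-0-2, against 249, 286 and 280.5 FPKM in Col-0-1, a change of -1.46 (SE 0.14, adjusted p = 2.12e-06). In dellaq it had 216, 287 and 324 FPKM, a change of 0.00 (adjusted p = 0.989) against Col-0-1 and 1.47 (adjusted p = 2.04e-06) against Col-0-2, and in lec1-4 145, 159 and 198 FPKM, between the wild-type sets. Of the vegetative-type members 4 of 5 were lower in Col-0-2, all but ERD14, and of the seed-type members 2 were higher and 3 lower. The sets also differed in plastid-encoded RNA, as given above, and whether this goes with the LEA differences was not tested.

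The mutants were also set against each other, which equals the difference between their changes from the same wild-type set, whichever is used. It does not equal the difference between changes from different sets. Plastid-encoded RNA was high in dellaq and Col-0-2 and low in lec1-4 and Col-0-1, so a difference between the wild-type sets that goes with it cannot be told apart from the genotypes here. In dellaq against lec1-4, 23 members were higher and 8 lower, and 7 did not pass, where 20.2% of all tested genes were higher and 54.6% lower, and the median difference was 1.05 (all tested genes: -0.27). In either direction 74.8% of all tested genes passed. Without EM6 and AT2G42560, 21 members were higher and 8 lower. Of the 11 tested seed-type members 10 were higher in dellaq (8 of 9 without EM6 and AT2G42560) and none was lower, while 4 of the 5 vegetative-type members were lower. Among the 8 is AT3G53040, which passed the filter only with its dellaq libraries. The widest differences were in AT2G21490 (6.53, SE 0.38, adjusted p = 1.81e-08) and AT5G44310 (5.85, SE 0.34, adjusted p = 1.92e-08), whose upstream windows are printed above. Next among the genes tested in more than dellaq alone came AT1G32560 (2.95, SE 0.29), RAB18 (2.87, SE 0.35) and RAB28 (2.66, SE 0.17). AT3G15670 had nearly the same mean level in the mutants, 30.4 ± 20.0 FPKM in dellaq and 30.2 ± 21.2 FPKM in lec1-4 (SD, n = 3 each), with a log2 difference of -0.06 (SE 0.55, adjusted p = 0.924). For AT5G06760 the difference was 0.28 (SE 0.41, adjusted p = 0.55) and for AT3G02480 it was 1.13 (SE 0.52, adjusted p = 0.0650). EM1 was higher in dellaq by 1.85 (SE 0.64, adjusted p = 0.0199), a call that was lost without dellaq replicate 2 or 3 or lec1-4 replicate 2 (adjusted p = 0.0701, 0.0965 and 0.0965). Counted against both wild-type sets, 9 members were higher in both mutants: LEA7, AT2G18340, AT3G02480, AT3G15670, AT3G17520, EM1, DI21, AT4G21020 and AT5G06760. Of all tested genes 0.801% were called that way. Among the 9, EM1, AT3G15670 and AT3G17520 reached 1 FPKM in no wild-type library and passed the filter through the mutants alone. Under median-ratio scaling DI21 and AT2G18340 were not called in lec1-4 against both sets. Another 15 were higher in dellaq without being called in lec1-4 against both sets (7.43% of all tested genes), and AT2G03850 and COR15B were higher in lec1-4 without being called in dellaq (3.35% of all tested genes).

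**Figure D4:**
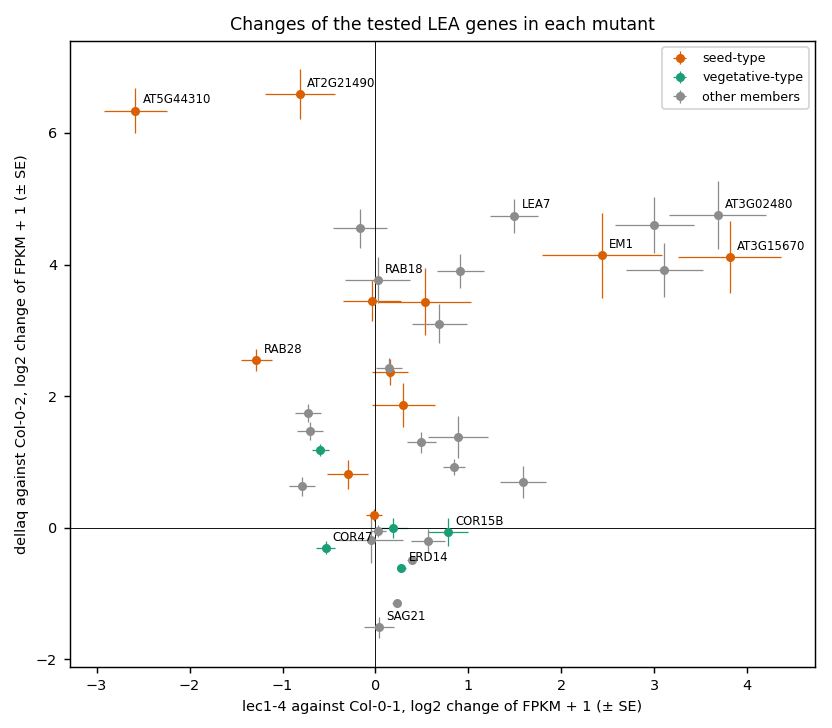
Log2 changes of FPKM + 1 of the 38 tested LEA genes, in dellaq against Col-0-2 (vertical) and in lec1-4 against Col-0-1 (horizontal), comparisons that share no library. Bars are SE and colours mark seed-type, vegetative-type and other members. AT3G15670, AT3G02480 and EM1 lie high on both axes, whereas AT5G44310 (6.34 and -2.58), AT2G21490 (6.59 and -0.81) and RAB28 (2.55 and -1.28) lie high in dellaq and left of 0 in lec1-4. Against Col-0-2 the lec1-4 changes of AT5G44310 (0.49) and RAB28 (-0.11) missed the threshold. The lec1-4 levels of AT2G21490 overlapped both wild-type sets.

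The raised members varied between libraries of a mutant more than most genes did. Within dellaq the median SD of log2(FPKM + 1) was 0.361 over the tested members and 0.502 over the 24 higher ones, against 0.0978 over all tested genes. Within lec1-4 it was 0.237 over the tested members, against 0.0866 over all tested genes. In Col-0-1 it was 0.157 over the tested members, against 0.0855 over all tested genes, and in Col-0-2 it was 0.129, against 0.0876. The tested members thus varied more than all tested genes in every group. All 24 higher members were lowest in dellaq replicate 1, whereas 50.66% of the 1978 genes called higher in dellaq against both sets were lowest there. Of the 12 higher members in lec1-4, 10 were highest in replicate 3, against 39.86% of the 1656 genes called that way, and 10 were lowest in replicate 2, against 35.75%. The raised LEA genes thus shared their lowest library in dellaq and mostly shared their lowest and highest in lec1-4, and no label ties these libraries to a stage, plant or day. Without dellaq replicate 1 the same 24 members were called higher.

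Regulators of maturation and other genes of desiccation tolerance gave a setting for these values. Of 17 maturation regulators 15 were tested, and against both wild-type sets 7 were higher and 2 lower in dellaq, while 2 were higher and 3 lower in lec1-4. Of all tested genes 9.78% were higher and 28.4% lower in dellaq in that way, and 8.19% and 4.01% in lec1-4. L1L (AT5G47670), the closest relative of LEC1, had 356, 362 and 391 FPKM in dellaq and 71.8, 58.0 and 69.2 FPKM in lec1-4, against 224, 213 and 259 FPKM in Col-0-1 and 93.5, 106 and 94.1 FPKM in Col-0-2, so that all 6 wild-type libraries lay between the mutants. BZIP67 (AT3G44460), a seed bZIP factor that works with L1L, rose in dellaq by 1.49 (adjusted p = 9.62e-07) against Col-0-1 and 2.64 (adjusted p = 1.25e-08) against Col-0-2. EEL (AT2G41070), a bZIP factor that binds the EM1 promoter, rose by 1.16 (adjusted p = 8.56e-06) and 2.52 (adjusted p = 1.74e-08) in dellaq, and DOG1 (AT5G45830), a regulator of seed dormancy, rose by 2.68 (adjusted p = 2.85e-07) and 1.96 (adjusted p = 4.08e-06). LEC2 (AT1G28300) fell in dellaq by 1.62 (adjusted p = 1.09e-07) and by 1.39 (adjusted p = 3.66e-07), and BZIP25 (AT3G54620) fell by 0.71 (adjusted p = 4.18e-08) and by 0.47 (adjusted p = 1.38e-06). FUS3 (AT3G26790) and ABI4 (AT2G40220) were higher in dellaq against Col-0-2 (1.55 and 0.93) but missed the threshold against Col-0-1 (adjusted p = 0.317 and 0.119), and between the wild-type sets they were lower in Col-0-2 (-1.46 and -0.82). BZIP10 (AT4G02640) was lower in dellaq against Col-0-1 (-0.43) and higher against Col-0-2 (0.17).

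In lec1-4, LEC1 itself (AT1G21970) fell by 5.04 (adjusted p = 1.28e-08) against Col-0-2 and by 4.42 (adjusted p = 2.53e-07) against Col-0-1. ABI3 (AT3G24650) had 31.3, 26.7 and 33.3 FPKM in lec1-4, against 33.6, 36.2 and 39.9 FPKM in Col-0-2 and 83.8, 79.5 and 89.6 FPKM in Col-0-1, below every wild-type library. LEC2 lay the other way, at 25.2 to 31.5 FPKM in lec1-4, against 12.6 to 15.2 FPKM in Col-0-2 and 14.2 to 18.7 FPKM in Col-0-1. ABI5 (AT2G36270), the bZIP factor that binds abscisic acid response elements upstream of EM1 and EM6, had 13.97, 12.8 and 16.8 FPKM in lec1-4, against 6.04, 6.05 and 5.65 FPKM in Col-0-2 and 6.46, 4.95 and 5.92 FPKM in Col-0-1. It was above all wild-type libraries in lec1-4 and rose by 1.16 (adjusted p = 3.68e-06) and 1.20 (adjusted p = 1.69e-05), and in dellaq by 0.59 (adjusted p = 0.00076) against Col-0-1 and 0.55 (adjusted p = 0.00134) against Col-0-2. Of 11 other desiccation genes 10 were tested, and 6 were higher and 1 lower in dellaq against both sets, while in lec1-4 0 were higher and 1 was lower. The shares over all tested genes were 9.78% higher and 28.4% lower in dellaq, and 8.19% and 4.01% in lec1-4. PER1 (AT1G48130), the seed peroxiredoxin, which was chosen after its values were seen, had 163, 276 and 240.4 FPKM in dellaq and 9.72, 4.72 and 15.4 FPKM in lec1-4, against 25.7, 13.6 and 45.5 FPKM in Col-0-1 and 1.41, 2.30 and 1.36 FPKM in Col-0-2. Of the 4 cold factors, CBF1 (AT4G25490), also chosen after its values were seen, was higher in lec1-4 against both sets (1.26 and 1.24, adjusted p = 0.000207 and 0.00104) at levels of 2.23 to 3.46 FPKM, and missed the threshold in dellaq.

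The members share short upstream motifs that the choice of genes did not use. An ACGTG core lay in the 250 bases before the gene start in 36 of the 51 members (70.6%), against 23.1% of the 26711 nuclear coding genes of the files. At least 2 separate cores, with a G-box counted once, lay in 23 members (45.1%), against 5.07% of all these genes. Of the 24 members higher in dellaq against both sets, 23 held a core, all but M17, and 20 held at least 2 separate cores, as the printed windows of EM1, EM6, AT3G15670 and AT5G44310 do. Of the 4 members lower in dellaq, 2 held a core (HIRD11 and ERD14) and none held a second one. The RY element lay in 9 of 51 members (17.65%), against 8.51% of all genes, and in 5 of the 15 members higher in dellaq but not called in lec1-4, among them AT2G21490. None of the 9 members higher in both mutants held one, which at a share of 8.51% over all genes does not set these 9 apart. The DRE/CRT core lay in 18 of 51 members (35.3%), against 11.9% of all genes, and in 7 of the 9 members higher in both mutants. Of the 5 vegetative-type members only 1 held a DRE/CRT core, COR15A with 2 of them, while COR47, ERD10, ERD14 and COR15B held none. These matches describe letters in a fixed window, 14 member windows overlap an exon of another gene, and no match was tested for use by any factor.

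**Figure D5:**
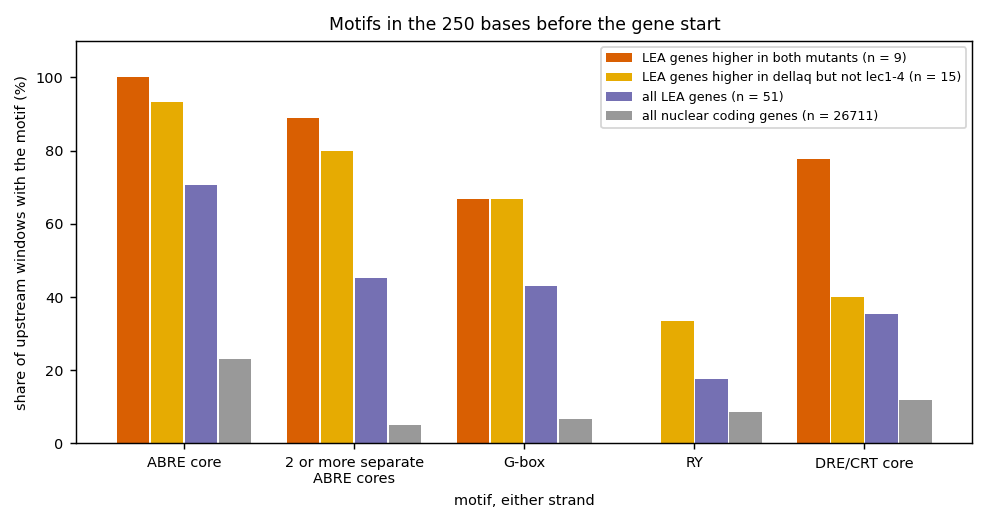
Share of upstream windows that hold each motif on either strand (vertical, percent), for the 9 LEA genes higher in both mutants, the 15 higher in dellaq but not called in lec1-4, all 51 LEA genes and the 26711 nuclear coding genes. ACGTG cores are found in 100% of the first set and 93.3% of the second, against 23.1% of all genes. RY elements are found in 0% of the first and 33.3% of the second, against 8.51% of all genes, so 0 of 9 does not set the first apart.

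The 13 members that were not tested stayed low. AT2G33690, AT3G53770 and AT4G13230 were listed at 0 in all 12 libraries, and the highest value among the other 10 was 5.04 FPKM, of M10 (AT2G41280) in dellaq replicate 3. M10, the AtM gene next to M17, had 0.238, 0.310 and 5.04 FPKM in dellaq, with 0 in every lec1-4 and Col-0-1 library and at most 0.102 FPKM in Col-0-2. The neighbouring SMP genes AT3G22490 and ECP31 (AT3G22500) had the same order, with 4.07 and 4.11 FPKM in dellaq replicate 3 and at most 0.502 FPKM in the other dellaq libraries. For AT3G22490 all lec1-4 and wild-type libraries were listed at 0. These 3 seed-type genes were thus above 1 FPKM in a single library, and no statement on dellaq as a group is made from it. AT2G23110 was tested and listed at 0 in all lec1-4 libraries, with 0.719, 3.52 and 0.936 FPKM in Col-0-2. The library kit did not keep strand, and 8 members overlap another coding gene on the reference (LEA7, AT2G18340, AT2G23120, AT2G33690, COR15B, AT3G22490, AT5G27980 and RAB18), so reads of the overlapping partner may enter their values. Tandem pairs such as COR15A and COR15B, COR47 and ERD10, and LTI30 and XERO1 may share reads if the authors' counting allowed it, so their single values are uncertain to that extent.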

How the data were processed

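Poly-A RNA of developing seeds was sequenced in 12 libraries, 3 per group. Each file deposited by the authors gives FPKM for every gene and replicate, per the file headers. DESeq 1.18.0, HTSeq 0.6.1, TopHat2 2.0.12 and Bowtie2 2.2.3 are listed without roles, per the submitters' processing notes, and the kit was unstranded, per the labels' protocols. Not given in the sources used here are the genome build, the annotation and the handling of shared reads. Because FPKM values are not counts, no count test was used.

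A gene was tested if 3 or more libraries reached 1 FPKM (20222 tested, 13380 left out). They were tested on log2(FPKM + 1), with a pseudocount of 1 FPKM that understates the change of low genes, by limma-trend (limma 3.58.1, R 4.3.3) with all 12 libraries in 1 model (8 residual degrees of freedom), with p-values adjusted over all tested genes by the Benjamini-Hochberg method. All adjusted p-values in the text are from this fit unless another setting is named. The procedure was tested on simulated data. Median-ratio and upper-quartile scaling, equal FPKM sums, other pseudocounts, filters, variance models and left-out libraries were tried, 22 settings listed at the outset and 1 added after seeing the data (equal sums over nuclear genes).

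The members, gene lists, families and types were chosen with earlier results of these data known. Described with every library were the most abundant member of each family, the named vegetative-type members, EM1 and EM6, members against the main direction, and the 5 largest changes per mutant called against both sets. Of the regulators and other desiccation genes, the 4 with the smallest adjusted p per comparison were named. Gene names came from the RefSeq table, where 32835 of 33602 identifiers and all 51 members matched. Upstream windows of 250 bases were read from RefSeq TAIR10.1, which the expression files do not name. Depth was inferred from the steps between low FPKM values and limits precision most for members under 1 FPKM.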

Additional observations from a re-analysis of the deposited data

Results flagged for a closer look

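When dellaq and lec1-4 were compared directly in limma-trend, 23 LEA genes were higher and 8 lower in dellaq at adjusted p under 0.05, where 20.2% of all tested genes were higher and 54.6% lower. Without EM6 and AT2G42560, which reached 1 FPKM in dellaq only, 21 were higher. The 8 included 4 of the 5 vegetative-type members, COR47, ERD14, COR15A and COR15B. The count of 23 ranged from 21 to 26 when single libraries were left out, and the count of 8 did not move. The mutants also differed in plastid-encoded RNA (7116 to 8593 FPKM in dellaq and 127 to 186 FPKM in lec1-4) and in tissue markers. Seed coat markers summed to 954 to 1143 FPKM in dellaq and 1584 to 1727 FPKM in lec1-4, with 6 of 6 lower in dellaq. Of the embryo markers 5 of 6 were lower in dellaq and none higher (546 to 594 FPKM in dellaq and 669 to 753 FPKM in lec1-4), and of the silique wall markers 3 of 4 were lower and 1 higher (22.7 to 24.1 FPKM in dellaq and 59.4 to 73.4 FPKM in lec1-4). Of 4 tested endosperm markers 2 were lower and 1 higher (2730 to 2999 FPKM in dellaq and 568 to 731 FPKM in lec1-4). The part of these in the counts was not tested.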

How the results depend on the processing

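Leaving out single libraries gave 22 to 25 higher and 3 to 4 lower in dellaq against both Col-0 sets, and 8 to 13 higher and 0 to 0 lower in lec1-4, where the count of 12 fell to 8 without lec1-4 replicate 1 or 3. Per comparison the higher and lower counts were 26 to 28 and 7 to 8 (dellaq against Col-0-1), 26 to 28 and 4 to 5 (dellaq against Col-0-2), 22 to 26 and 5 to 6 (lec1-4 against Col-0-2), 11 to 16 and 7 to 7 (lec1-4 against Col-0-1), 8 to 9 and 15 to 17 (Col-0-2 against Col-0-1), and 21 to 26 and 8 to 8 (dellaq against lec1-4). The 4 members lower in dellaq against both sets became 2 under median-ratio scaling, 2 under upper-quartile scaling and 2 with only the compared libraries in the fit, as COR47 and AT2G44060 missed the threshold against 1 set. Lower members in dellaq against lec1-4 became 5 where a mean of at least 5 FPKM was required, which tests fewer genes. The 24 higher in dellaq against both sets became 17 with that filter. The higher members in lec1-4 against both sets became 8 under median-ratio scaling, 9 under upper-quartile scaling and 9 with a mean of at least 5 FPKM. Requiring a log2 change of at least 1 left 3 lower in dellaq against Col-0-1, 2 lower in dellaq against Col-0-2, 15 higher and 3 lower in lec1-4 against Col-0-2, 7 higher and 2 lower in lec1-4 against Col-0-1, 4 higher in Col-0-2 against Col-0-1, 4 lower in dellaq against lec1-4, 0 lower in dellaq against both sets and 6 higher in lec1-4 against both sets. That rule also left 19 higher in dellaq against both sets, in place of 24. It adds a fold limit, so the counts fall by construction. Among single genes 3 values changed sign: AT2G44060 in dellaq against Col-0-1 under median-ratio scaling (0.094), and HIRD11 (AT1G54410) in lec1-4 against Col-0-2 with equal FPKM sums (0.011) and with equal sums over nuclear genes (0.0023, added after seeing the data). The cause was not tested. Median-ratio scaling gave a median of -0.02 over all tested genes in dellaq against Col-0-1, in place of -0.22, and equal FPKM sums gave -0.39. With the replicate number as a block the counts against both sets were 24 higher and 4 lower in dellaq and 13 higher and 0 lower in lec1-4. The labels' numbers do not pair the samples: over 18 same-numbered pairs the correlation of deviations ran from -0.10 to 0.19, and 2 were over 0.1. Members under 1 FPKM rest on few fragments, and a value of 0 there does not show that a gene is off.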
